A study of Arabidopsis thaliana with 20 samples.

Results

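Chlorophyll and heme share a pathway, and 10 of its genes in *A. thaliana* were followed through the 33296 genes of the deposited table: HEMA1, GUN4, CHLH, CRD1, PORA, PORB, PORC, CAO (listed as CH1), FC1 and FC2. They were taken by gene identifier, one after the other along the pathway, and all 10 were in the table. Shoots of Col-0 plants were sequenced from Parafilm-sealed dishes without air flow (4 libraries) and from Parafilm-sealed dishes through which filtered air was passed (aerated, 4 libraries), so that the seal itself was common to both treatments. Each library was a pool of the shoots of 10 plants of 1 plate, all grown on Murashige-Skoog medium with 1% sucrose after 4 days of vernalization. Air flow began on day 5 after sowing, when the sealed plates were only opened and closed, and the labels put the harvest 15 days after vernalization (the study's text also gives other ages). The question was how growth without air exchange, in which plants draw down the CO2 of the dish, altered the transcripts of pigment synthesis. A second set of libraries, which added Micropore tape as a seal, was not analysed here.

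Tetrapyrroles are made in the plastid from glutamate. Glutamyl-tRNA reductase (HEMA1 is the main gene in green tissue) commits the pathway to 5-aminolevulinic acid (ALA), which is built up to protoporphyrin IX. There the pathway splits: magnesium chelatase, with its large subunit CHLH and its activator GUN4, leads to chlorophyll, and ferrochelatase (FC1 and FC2) leads to heme. On the magnesium branch CRD1 is part of the cyclase that closes the fifth ring, the light-dependent protochlorophyllide oxidoreductases (PORA, PORB and PORC) make chlorophyllide, and CAO converts chlorophyll *a* to *b*. PORA is best known from dark-grown seedlings, while PORB and PORC act in green leaves. FC2 is the main ferrochelatase of leaves, and FC1 is known from roots and from stressed tissue.

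The sequences just upstream of the genes whose libraries did not overlap between the treatments are shown (PORA, PORB, CAO and FC1). They were picked by that outcome, and the part of upstream sequence in the different responses of paralogs was not tested. Windows of 250 bases before the RefSeq gene start (TAIR10.1) were read, and where another gene's exon lay in the window, only the part free of it is given (PORB, 186 bases). Capitals mark the matches to the motifs searched on both strands, which were the G-box (CACGTG), the motif read as CCAATC and the I-box (GATAAG, read on the other strand as CTTATC).
PORA, chr5:21992815-21993064, minus strand: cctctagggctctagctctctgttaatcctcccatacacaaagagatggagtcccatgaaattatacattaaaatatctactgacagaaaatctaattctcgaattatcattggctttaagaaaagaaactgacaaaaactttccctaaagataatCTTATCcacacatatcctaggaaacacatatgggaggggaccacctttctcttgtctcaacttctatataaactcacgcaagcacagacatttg
PORB, chr4:13725360-13725545, plus strand: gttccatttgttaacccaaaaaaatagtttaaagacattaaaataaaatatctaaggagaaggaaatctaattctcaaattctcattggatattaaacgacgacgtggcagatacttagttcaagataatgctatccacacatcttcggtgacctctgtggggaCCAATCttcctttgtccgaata
CAO, chr1:16851272-16851521, minus strand: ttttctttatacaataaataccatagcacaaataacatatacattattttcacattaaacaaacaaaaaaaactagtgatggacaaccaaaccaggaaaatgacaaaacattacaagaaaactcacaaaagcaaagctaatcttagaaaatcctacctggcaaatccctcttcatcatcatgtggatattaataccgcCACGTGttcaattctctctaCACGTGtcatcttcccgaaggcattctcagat
FC1, chr5:9096201-9096450, plus strand: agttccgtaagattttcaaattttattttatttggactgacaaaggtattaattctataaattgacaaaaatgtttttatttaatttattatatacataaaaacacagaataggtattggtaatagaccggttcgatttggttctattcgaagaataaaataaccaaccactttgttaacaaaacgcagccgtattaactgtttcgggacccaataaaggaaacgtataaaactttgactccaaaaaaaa
Among the windows of 27442 protein-coding genes, 6.49% held the G-box, 10.2% held CCAATC and 12.3% held the I-box. CAO held the G-box at positions -52 and -32 from the gene start. CRD1 also held it at -52, and FC2 at -14. PORB held CCAATC at -22, and again at -219 within an exon of the neighbouring gene. GUN4 held CCAATC at -13, which lies in an exon of AT3G59410, and PORA held the I-box at -94 on the other strand. The windows of HEMA1, CHLH, PORC and FC1 held no match. In PORC only the 11 bases nearest the gene start lay before an exon of another gene, and in FC2 only 25. The longest run shared by each pair of paralogs was then counted over all windows, those of the pair included. PORA and PORB shared a run of 13 bases, aaatctaattctc, which began at -162 in PORA and at -123 in PORB. It occurred in 3 of the 27442 windows. PORC shared at most 7 bases with PORA (in 2033 windows) and 8 with PORB (in 288). FC1 and FC2 also shared a run of 13 bases, acaaaaatgtttt, which began at -186 and -236 and occurred in 12 windows. In FC2 this run lay beyond the 25 bases free of another gene's exon. A match is a description of the letters and not of a binding site.

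The values given are normalized counts, which are reads divided by the library's size factor, and libraries are named by the numbers of the deposited columns (aerated 1, 3, 5 and 7, Parafilm-sealed 2, 4, 6 and 8). Between 34330463 and 60255788 reads were recovered per library. Aerated library 5 stood apart: it was the highest of the aerated libraries in 37.6% and the lowest in 36.2% of the 20160 genes tested, and the values without it are given where it bears on a result. Summed levels of 5 shoot markers were 2089056 to 2803955 in aerated and 1700921 to 2196007 in Parafilm-sealed libraries. None of the 5 passed the test with limma, and they differed in direction, with 2 log2 fold changes above 0 and 3 below. LHCB2.1 was the lowest, at -0.57 (adjusted p = 0.0858 with limma and 0.0316 with DESeq2). RBCS1B was the highest, at 0.36 (adjusted p = 0.0521 with limma and 0.0136 with DESeq2). It had 22524 to 29634 normalized counts in aerated and 30228 to 36989 in Parafilm-sealed libraries. The summed level of 7 root markers was 86.8 to 203 in aerated and 51 to 195 in Parafilm-sealed libraries, and that of 3 seed markers 7.8 to 19.3 and 33.9 to 171. The larger sum came from SESA1, a seed storage protein gene, with 0.9 to 3.4 in aerated and 30.1 to 158 in Parafilm-sealed libraries, which passed the limit on low values only through the Parafilm-sealed plants. CRA1 overlapped between the treatments (2.6 to 13.4 and 3 to 27.6), and OLEO1 was lower in Parafilm-sealed libraries (2.3 to 2.6 and 0 to 0.8). No marker was at 0 in every library of a treatment, and the part of the seed transcripts in the results was not tested. In pools of whole shoots, fewer cells of a type and less RNA per cell cannot be told apart.

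The oxidoreductase genes PORA and PORB fell in Parafilm-sealed plants, 3.88-fold and 2.51-fold, and the ferrochelatase gene FC1 rose 2.83-fold, while their paralogs PORC and FC2 and the upstream genes HEMA1, CHLH and CRD1 did not pass the test. Of the 10 genes 9 were tested, and 3 passed an adjusted p value of 0.05 (limma), 2 lower and 1 higher. Among all tested genes 22.4% passed, 10.0% lower and 12.4% higher. All 3 also changed at least 2-fold, as 7.88% of all genes did (2.63% lower and 5.24% higher). The libraries of the treatments did not overlap for 4 of the 9 genes (PORA, PORB, CAO and FC1), against 27.3% of all genes. The median log2 fold change (Parafilm-sealed over aerated) was -0.05 over the 9 genes and -0.0024 over all genes. The 10 genes were gathered with results of these data known, so that their count is no independent evidence of a direction.

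**Figure D1:**
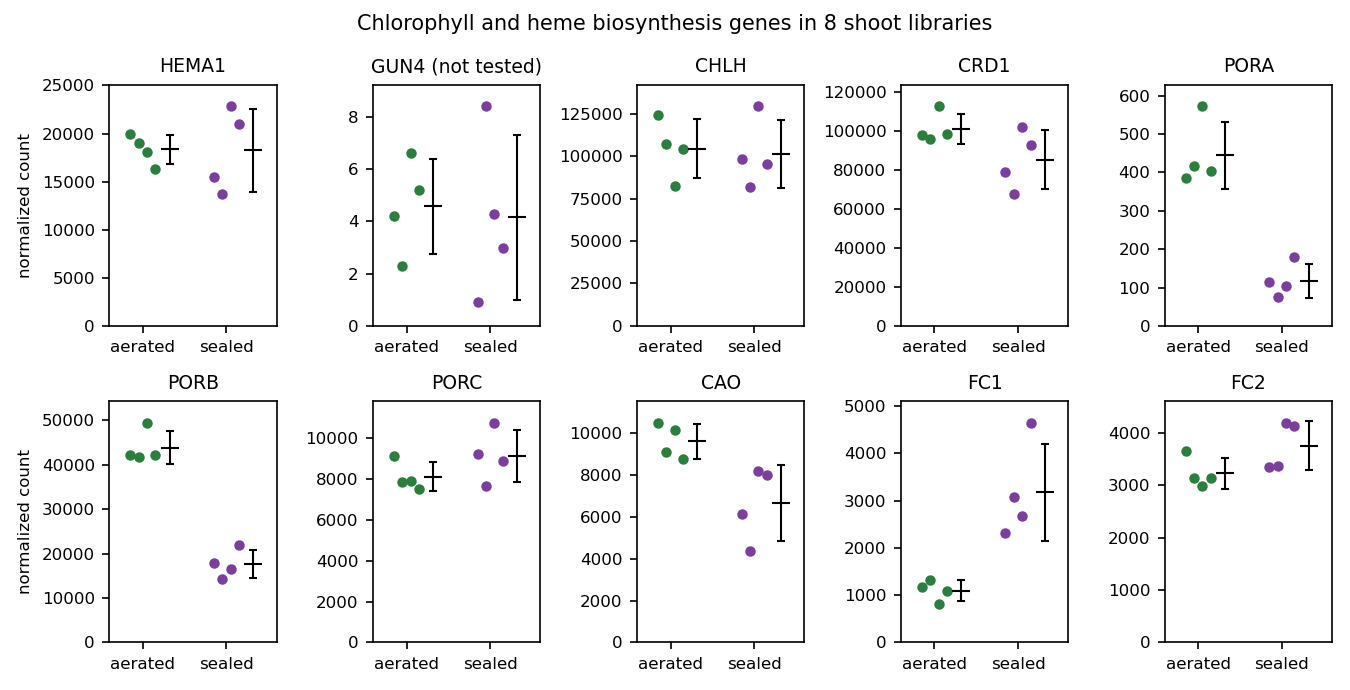
Normalized counts of the 10 genes in each library, in pathway order, with green points for aerated and purple points for Parafilm-sealed plants and black bars for the mean and SD (n = 4). Only PORA, PORB, CAO and FC1 show no overlap between the treatments, and GUN4 stays under 10 in every library.

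The first step showed wide scatter, and no shift was detected. HEMA1 (AT1G58290, chromosome 1, 21623700 to 21626402) had 19937, 19042, 18091 and 16317 normalized counts in the aerated libraries. In the Parafilm-sealed libraries it had 15533, 13751, 22819 and 20960, so that libraries 2 and 4 lay below and libraries 6 and 8 above every aerated library. Aerated plants averaged 18347 ± 1549 and Parafilm-sealed plants 18266 ± 4314 (SD, n = 4 each), which gave a log2 fold change of -0.03 (95% interval -0.40 to 0.33, adjusted p = 0.905, limma).

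GUN4, which binds the chelatase's porphyrins and stimulates it, could not be assessed. Its gene (AT3G59400, chromosome 3, 21948501 to 21949796) shares 946 of its exonic bases, 73.0% of them, with AT3G59410 (GCN2) on the opposite strand, and the libraries were not stranded. Its values were 4.2, 2.3, 6.6 and 5.2 in aerated and 0.9, 8.4, 4.3 and 3.0 in Parafilm-sealed libraries. They stand for 1 to 7 reads per library, below the limit of 10 normalized counts. How reads in the shared stretch were assigned is not given in the sources used here, and its part in the low values was not tested. The other gene of the pair averaged 1562 normalized counts.

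CHLH, the porphyrin-binding subunit of magnesium chelatase (AT5G13630, chromosome 5, 4387307 to 4392429), ranged from 82103 to 123939 normalized counts in aerated and from 82009 to 129206 in Parafilm-sealed libraries. The ranges were almost the same. Their log2 fold change of -0.05 had an interval of -0.45 to 0.35 (adjusted p = 0.873, limma), and it changed sign with single libraries left out (-0.17 to 0.05), as did that of HEMA1 (-0.15 to 0.09).

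CRD1 (AT3G56940, chromosome 3, 21076505 to 21078443) was the most abundant of the 10 genes per kb of exon. It had 98043, 95859, 112579 and 98232 normalized counts in aerated and 78922, 67479, 101972 and 92782 in Parafilm-sealed libraries. Only Parafilm-sealed library 6 exceeded any aerated library. A log2 fold change of -0.26 (SE 0.15, 95% interval -0.60 to 0.08) did not pass the test (adjusted p = 0.250, limma). Without aerated library 5 it was -0.21 (adjusted p = 0.381).

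The largest change of the 10 genes was at the step that needs light. PORB, the major oxidoreductase transcript in these shoots (AT4G27440, chromosome 4, 13725546 to 13727440), had 42246, 41641, 49402 and 42100 normalized counts in the aerated libraries. It had 17913, 14258, 16446 and 21952 in the Parafilm-sealed libraries. The lowest aerated library thus lay well above the highest Parafilm-sealed one. This gave a log2 fold change of -1.33 (SE 0.14, 95% interval -1.64 to -1.02, adjusted p = 0.000313, limma). Without aerated library 5 it was -1.27 (adjusted p = 0.00141).

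PORA (AT5G54190, chromosome 5, 21990864 to 21992814) was rare in both treatments. It had 384.7, 415.7, 572.2 and 404.9 normalized counts in aerated and 113.4, 74.6, 104.2 and 180.1 in Parafilm-sealed libraries. The treatments did not overlap, and library 8 was the highest of the Parafilm-sealed libraries, as it was for PORB. The means were 444 ± 86 (SD, n = 4) in aerated and 118 ± 45 (SD, n = 4) in Parafilm-sealed plants, a log2 fold change of -1.96 (SE 0.25, 95% interval -2.51 to -1.40, adjusted p = 0.000715, limma). Without aerated library 5 it was -1.83 (adjusted p = 0.00345).

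PORC, the third gene of the family (AT1G03630, chromosome 1, 907523 to 909650), did not pass the test. It had 9130, 7854, 7918 and 7510 normalized counts in aerated and 9240, 7672, 10747 and 8866 in Parafilm-sealed libraries. The ranges overlapped, with Parafilm-sealed libraries 2 and 6 above every aerated library. Its log2 fold change of 0.17 (SE 0.12, adjusted p = 0.339, limma) had an interval of -0.10 to 0.43.

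**Figure D2:**
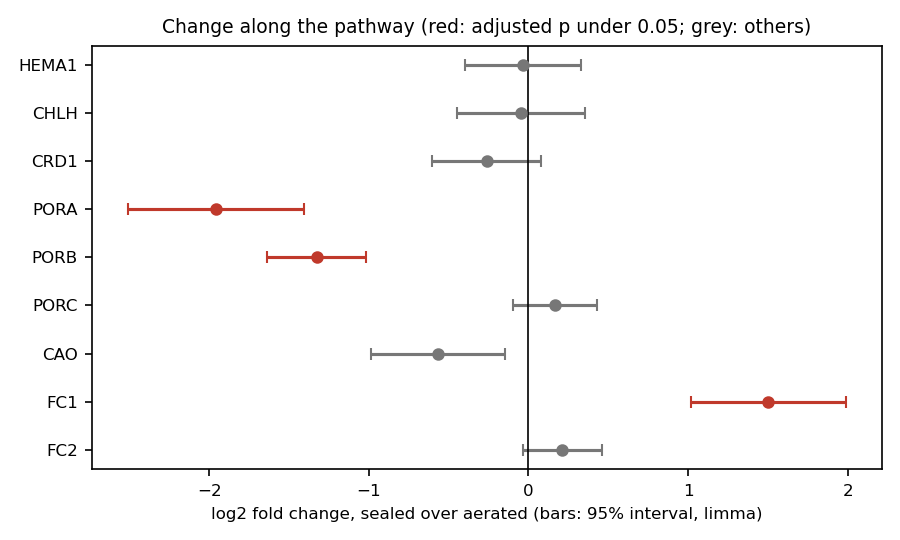
Log2 fold changes of Parafilm-sealed over aerated plants for the 9 genes tested, in pathway order from top to bottom, with 95% intervals from limma (red where the adjusted p value is under 0.05, grey elsewhere). PORA (-1.96), PORB (-1.33) and FC1 (1.50) lie far from 0, the interval of CAO reaches from -0.99 to -0.15, and the others span 0.

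Within the oxidoreductase family the balance of transcripts was therefore compared inside each library, where scaling plays no part. The log2 ratio of PORB to PORC was 2.21, 2.41, 2.64 and 2.49 in aerated and 0.96, 0.89, 0.61 and 1.31 in Parafilm-sealed libraries. It fell 2.82-fold, by 1.49 on the log2 scale, with no overlap. The ratio of PORA to PORC fell 4.35-fold, from a mean log2 ratio of -4.20 ± 0.32 (SD, n = 4) in aerated to -6.32 ± 0.50 (SD, n = 4) in Parafilm-sealed plants. PORA also fell relative to PORB, 1.55-fold, from -6.64 ± 0.15 (SD, n = 4) to -7.27 ± 0.26 (SD, n = 4). Each of the 4 pairs of paralogs compared gave p = 0.029 in a two-sided exact permutation test, the smallest that 4 libraries against 4 allow. Since all were at that value, adjustment over the 4 pairs left it at 0.029. The ratios within the oxidoreductase family are not independent tests, as each follows from the others. The difference between PORA and PORB was the least firm, with p = 0.0571 (exact permutation test, adjusted) when any 1 aerated library was left out.

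Per kb of exon, the 3 oxidoreductase genes together had 31520 ± 2290 (SD, n = 4) normalized counts in aerated and 15930 ± 2224 (SD, n = 4) in Parafilm-sealed plants, 1.98-fold fewer. PORB made up 84.7% ± 1.47 (SD, n = 4) of this total in aerated and 67.3% ± 4.21 (SD, n = 4) in Parafilm-sealed plants. The share of PORC went from 14.4% ± 1.56 to 32.3% ± 4.29 (SD, n = 4 each), and that of PORA from 0.845% ± 0.103 to 0.437% ± 0.106 (SD, n = 4 each). PORA thus stayed under 1% of the total in every library.

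The coding sequences of PORA and PORB are 83.2% identical, with a longest identical exonic run of 48 bases, and those of PORB and PORC 73.5%, with a run of 20 bases. FC1 and FC2 are 63.8% identical, with a run of 21 bases. All these runs are shorter than the 100-base reads. How reads that match several genes were counted is not given in the sources used here.

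**Figure D3:**
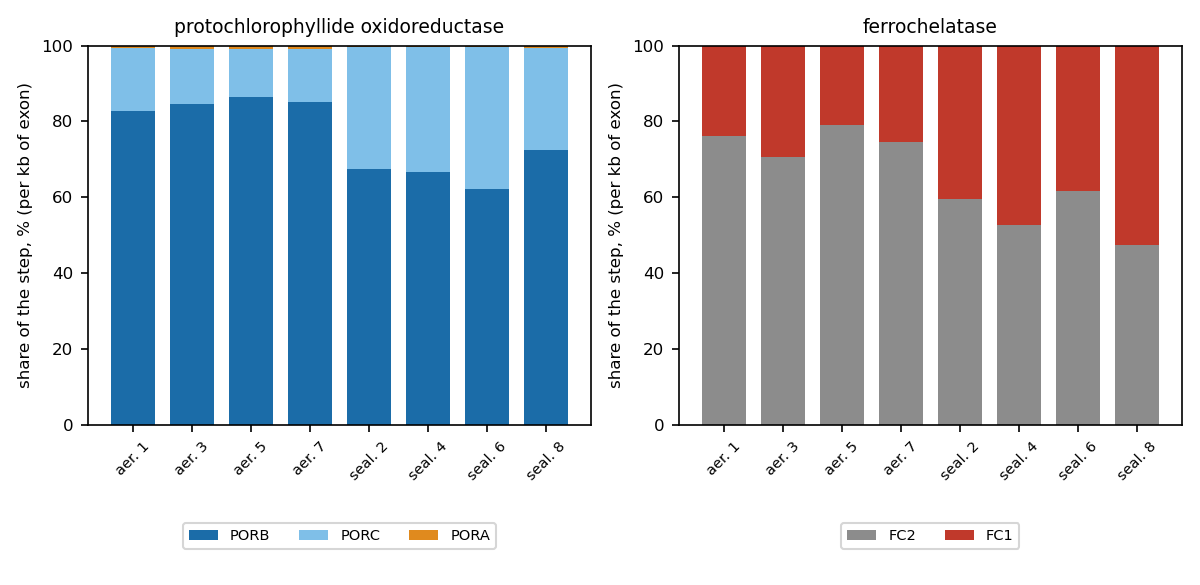
Share of each paralog in the summed transcripts of its step in each library, in percent of normalized counts per kb of exon, for the 3 oxidoreductase genes (left) and the 2 ferrochelatase genes (right). PORC takes 12.7% to 16.4% in aerated and 26.9% to 37.4% in Parafilm-sealed libraries, FC1 takes 20.9% to 29.3% and 38.4% to 52.5%, and PORA is a thin band at the top.

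CAO, the oxygenase that makes chlorophyll *b* (AT1G44446, chromosome 1, 16848308 to 16851271), lay at the edge of the test. It had 10482, 9087, 10164 and 8737 normalized counts in aerated and 6119, 4345, 8205 and 8020 in Parafilm-sealed libraries. Every Parafilm-sealed library was below every aerated one, but libraries 6 and 8 were close to them. The log2 fold change of -0.57 (SE 0.19, 95% interval -0.99 to -0.15) had an adjusted p of 0.0544 (limma), with 0.0284 to 0.117 over the libraries left out in turn. The adjusted p was 0.0306 with DESeq2 and 0.0595 with edgeR on the recovered reads. With limma it was 0.0296 on library totals and 0.048 with TMM factors, so that the call depends on the tool and on the scaling.

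FC1, 1 of the 2 ferrochelatase genes of the heme branch, was higher in Parafilm-sealed plants. The gene (AT5G26030, chromosome 5, 9096451 to 9099185) had 1167, 1328, 803.0 and 1094 normalized counts in aerated and 2309, 3078, 2666 and 4646 in Parafilm-sealed libraries. The treatments did not overlap, and Parafilm-sealed library 8 was the highest. The log2 fold change was 1.50 (SE 0.22, 95% interval 1.02 to 1.99, adjusted p = 0.00133, limma). It was 1.303 without library 8 (adjusted p = 0.000834) and 1.36 without aerated library 5 (adjusted p = 0.00499).

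FC2 (AT2G30390, chromosome 2, 12950954 to 12954148) had 3664, 3149, 2984 and 3140 normalized counts in aerated and 3352, 3361, 4192 and 4130 in Parafilm-sealed libraries. Aerated library 1 lay among the Parafilm-sealed libraries, and the log2 fold change was 0.21 (SE 0.11, 95% interval -0.03 to 0.46, adjusted p = 0.198, limma). The ratio of FC1 to FC2 rose 2.45-fold, from a mean log2 ratio of -1.58 ± 0.27 (SD, n = 4) in aerated to -0.29 ± 0.38 (SD, n = 4) in Parafilm-sealed plants (p = 0.029, two-sided exact permutation test). Per kb of exon, FC1 held 24.9% ± 3.50 of the ferrochelatase transcripts in aerated and 44.6% ± 6.47 in Parafilm-sealed plants (SD, n = 4 each), and exceeded FC2 in Parafilm-sealed library 8 alone (52.5%). The total of both was 1.59-fold higher in Parafilm-sealed plants, at 3403 ± 647 normalized counts per kb against 2135 ± 215 (SD, n = 4 each).

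The order of the levels per kb of exon changed at PORB. In aerated plants CRD1 (67768 normalized counts per kb) was followed by PORB (26720), CHLH (21952), HEMA1 (7939), PORC (4534), CAO (4149), FC2 (1601), FC1 (533) and PORA (268). The libraries of PORB and CHLH overlapped, as did those of PORC and CAO. In Parafilm-sealed plants the order was CRD1 (57126), CHLH (21302), PORB (10751), HEMA1 (7904), PORC (5110), CAO (2878), FC2 (1861), FC1 (1542) and PORA (71.1). There PORB no longer overlapped CHLH but overlapped HEMA1, HEMA1 overlapped PORC, CAO overlapped FC2, and FC2 overlapped FC1.

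The Parafilm-sealed libraries varied more than the aerated ones. The coefficient of variation was larger among them in 9 of 9 genes, with medians of 19.7% against 8.74%, while it was larger in 58.2% of all tested genes, with medians of 15.2% against 13.1%. Parafilm-sealed library 4 was the lowest of its treatment in 7 of the 9 genes (HEMA1, CHLH, CRD1, PORA, PORB, PORC and CAO), against 29.2% of all genes. Library 6 was the highest in 6 of them (HEMA1, CHLH, CRD1, PORC, CAO and FC2), against 23.2% of all genes. No test was made of these places, since the genes are not independent of one another.

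The rest of the pathway was counted from fixed lists of 43 genes, of which 41 were tested. Of these 5 passed, 3 higher and 2 lower, where 22.4% of all tested genes passed (12.4% higher and 10.0% lower). Their median log2 fold change was -0.05. Among the 7 genes of ALA formation, HEMA2 rose, a second glutamyl-tRNA reductase gene known from non-green tissue (AT1G09940). It had 1399, 1525, 1300.0 and 1235 normalized counts in aerated and 1793, 2132, 2492 and 3103 in Parafilm-sealed libraries. Every Parafilm-sealed library was higher (log2 fold change 0.78, SE 0.16, adjusted p = 0.00689, limma). Per kb of exon its share of the reductase transcripts was 7.23% ± 0.39 in aerated and 12.1% ± 1.85 in Parafilm-sealed plants (SD, n = 4 each), and HEMA1 held nearly all the rest.

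Of the 10 genes from ALA to protoporphyrin, 9 were tested and only HEMF2, a coproporphyrinogen oxidase gene (AT4G03205), passed. It fell from 1016 ± 63.0 (SD, n = 4) normalized counts in aerated to 718 ± 77.7 (SD, n = 4) in Parafilm-sealed plants (log2 fold change -0.50, SE 0.10, adjusted p = 0.00772, limma). None of 8 further genes of the magnesium branch passed with limma. Their log2 fold changes lay between -0.35 (CHLM, the methyltransferase before CRD1) and 0.09, and the lowest adjusted p was 0.0693 (limma). The libraries of the treatments did not overlap for 2 of the 8 genes, against 27.3% of all tested genes. These were CHLM and CHLI2, a small subunit of magnesium chelatase (log2 fold change of CHLI2 -0.25, adjusted p = 0.0695, limma). CHLM passed with DESeq2 (adjusted p = 0.0398), with library totals (0.0272) and without Parafilm-sealed library 8 (0.042), and CHLI2 with DESeq2 (0.0342) and without Parafilm-sealed library 6 (0.0493).

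In the return from chlorophyll *b* to *a*, 1 of 3 genes passed. HCAR, which makes chlorophyll *a* from its hydroxymethyl form (AT1G04620), had 592.2, 630.4, 730.4 and 739.4 normalized counts in aerated and 341.9, 347.6, 388.0 and 373.7 in Parafilm-sealed libraries. Neither treatment came near the other (log2 fold change -0.89, SE 0.11, adjusted p = 0.000675, limma). NYC1 and NOL, the reductases that act on chlorophyll *b* first, had log2 fold changes of -0.12 and -0.01.

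Of 7 genes of heme use and siroheme 6 were tested, and UPM1 rose. It makes the first intermediate of siroheme, the cofactor of nitrite and sulfite reductases (AT5G40850). It had 4364, 4150, 3511 and 4032 normalized counts in aerated and 14336, 14791, 9088 and 17880 in Parafilm-sealed libraries. The increase was 3.40-fold (log2 fold change 1.77, SE 0.18, adjusted p = 0.000302, limma). SIRB, which inserts the iron of siroheme, lay at a log2 fold change of 0.03 (adjusted p = 0.864, limma). Of the heme oxygenase genes, HO1 had a log2 fold change of -0.09 and HO2 of -0.28 (adjusted p = 0.504 and 0.0733, limma). HO2 passed with DESeq2 (0.0473) and without Parafilm-sealed library 8 (0.0432).

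Of 8 genes of chlorophyll breakdown only CLH1, a chlorophyllase gene, passed (log2 fold change 1.12, SE 0.31, adjusted p = 0.0263, limma). The treatments overlapped, with 1876, 1017, 1059 and 1138 normalized counts in aerated and 1954, 1705, 3750.0 and 4157 in Parafilm-sealed libraries. The adjusted p rose to between 0.067 and 0.0734 without aerated library 3, 5 or 7 or Parafilm-sealed library 6. PAO, the oxygenase that opens the chlorophyll ring, lay at 0.24 on the log2 scale (adjusted p = 0.0664 with limma and 0.027 with DESeq2).

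Of 7 regulators of greening, 2 passed as lower and 1 as higher, against 10.0% and 12.4% of all tested genes. GLK2, an activator of photosynthesis and chlorophyll genes, had a log2 fold change of -0.60 (SE 0.15, adjusted p = 0.0202, limma), and the GATA factor gene GNC -0.63 (SE 0.16, adjusted p = 0.02, limma). The treatments did not overlap for these genes, and for 3 of the 7 regulators in all, against 27.3% of all tested genes. The call was lost for GLK2 without aerated library 1 (adjusted p = 0.0518) or 5 (0.0536), and for GNC without aerated library 7 (0.064) or Parafilm-sealed library 2 (0.0511), 4 (0.051) or 6 (0.0522). Their relatives GLK1 and CGA1 had log2 fold changes of -0.25 and -0.14 (adjusted p = 0.240 and 0.537, limma). GUN1, a plastid protein of signalling to the nucleus, was higher by 0.42 (SE 0.13, adjusted p = 0.0466, limma). That call was lost with edgeR (adjusted p = 0.0541), and with limma on library totals (0.0695) and with no filter (0.0623). It was also lost in 7 of the 8 fits with a library left out (up to 0.11, without Parafilm-sealed library 6).

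**Figure D4:**
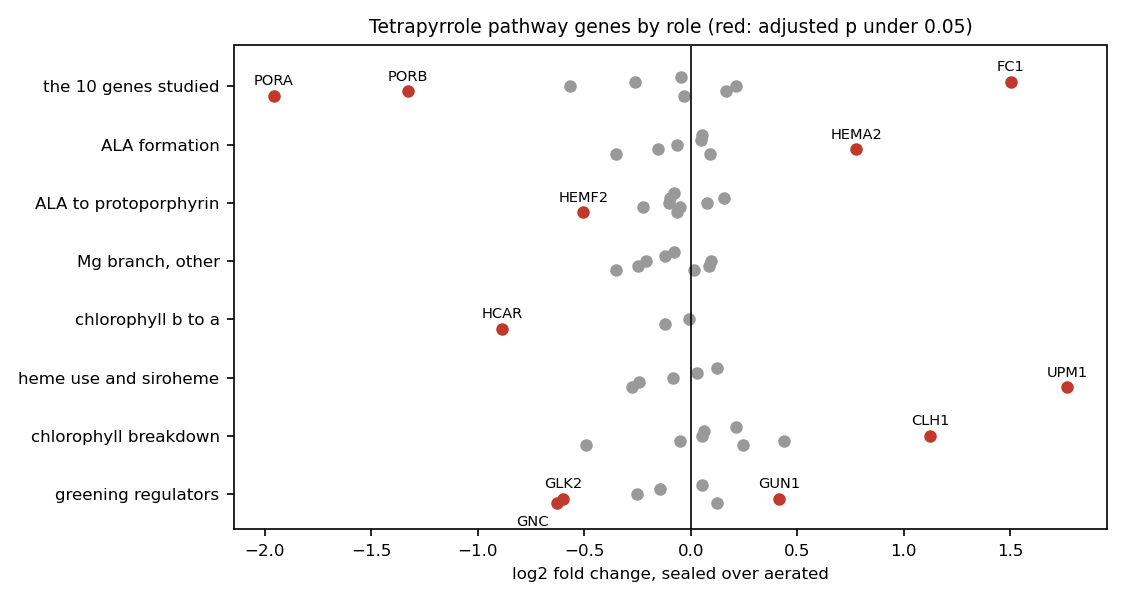
Log2 fold changes of Parafilm-sealed over aerated plants for the 57 tested genes of tetrapyrrole synthesis, use, breakdown and regulation, 1 point per gene and 1 row per list (red and named where the adjusted p value is under 0.05). Most points lie close to 0, and PORA, PORB and HCAR on the left and UPM1, FC1 and CLH1 on the right lie farthest out among the named genes.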

How the data were processed

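Normalized counts of 8 libraries (4 per treatment, separate plates) were used. Single-end reads were aligned by the authors to TAIR10 (HISAT2 2.0.4) and assigned to Araport11 genes (featureCounts 1.5.2), and they deposited a signal, the count divided by the DESeq2 size factor, rounded to 1 decimal. Their columns of fold changes and adjusted p values, and the second set's table, which holds only such columns, were not used. Whole reads were recovered for 99.823% to 100% of nonzero values (tolerance 0.05 normalized counts).

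Log2 of the value plus 1 was fitted with limma 3.58.1 (trend, R 4.3.3) over the 20160 genes that reached 10 normalized counts in 4 or more libraries (3 where 1 was left out), with Benjamini-Hochberg adjustment over all of them. The log2(value + 1) scale understates changes of low genes. DESeq2 1.42.0 (Wald) and edgeR 4.0.16 (quasi-likelihood) on recovered reads, other scalings, pseudocounts of 0.5 and 10 and no filter were alternatives. The scripts were tested on simulated data. Ratios of paralogs used exact permutation over 70 assignments. Gene positions, exon lengths and sequences came from RefSeq TAIR10.1, which held 33011 of the 33296 identifiers. Identity was computed over aligned coding bases.

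The 10 genes, the lists and the rule for naming (all 10, and up to 3 called genes of each list with the largest change) were chosen with earlier results of these data known. SESA1, LHCB2.1, RBCS1B, NYC1, NOL, CHLM, CHLI2, CRA1, OLEO1, SIRB, HO1, HO2, PAO, GLK1 and CGA1 were named after their values were seen.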

Additional observations from a re-analysis of the deposited data

Results flagged for a closer look

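In 3 of the 18 groups of 4 libraries examined (9 genes in each treatment), 1 library lay far from the other 3, by a limit that chance passes in about 1 group in 20. In all of them it was aerated library 5 as the highest. It had 112579 normalized counts of CRD1, against 95859 to 98232 in the other aerated libraries. It had 572.2 of PORA, against 384.7 to 415.7, and 49401.6 of PORB, against 41640.9 to 42246.3. The same library was the lowest aerated one for CHLH, FC1 and FC2. The falls of PORA and PORB passed the test without it.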

How the results depend on the processing

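The calls of PORA, PORB and FC1 kept their direction and their side of the threshold under every alternative run. With each library left out once, log2 fold changes of PORA were -2.18 to -1.76, those of PORB -1.44 to -1.23 and those of FC1 1.303 to 1.639. Another of the 10 genes, CAO, passed with DESeq2 (adjusted p = 0.0306), library totals (0.0296), TMM factors (0.048) and without Parafilm-sealed library 6 (0.0353) or 8 (0.0284). Over 28 of the named genes, 387 alternative values stayed on their side of the threshold. A call was gained in 13 (CAO, CHLM, CHLI2, HO2 and PAO) and lost in 20 (GUN1, CLH1, GNC and GLK2), and no called change reversed. Other scalings moved the median of all genes by less than 0.01 on the log2 scale. Over all genes 4508 passed with limma, 4618 with edgeR and 5669 with DESeq2, 1588 with a fold change of at least 2, and 2852 (without aerated library 7) to 5065 (without Parafilm-sealed library 8) with 1 library left out. The difference in the log2 ratio of PORA to PORB was -0.74 to -0.53 with 1 library left out, with an adjusted p of 0.0571 (exact permutation test) without any of the 4 aerated libraries, where 4 libraries faced 3. The cause of these changes was not tested. GUN4 could not be assessed, since it stayed below the limit of 10 normalized counts. The part of the exonic bases it shares with a gene on the opposite strand was not tested. No paired analysis was possible because the columns carry library numbers, which the labels do not tie to replicate numbers.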
